A study of Homo sapiens with 5 samples.

Results

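The genes of glycolysis and of the response to low oxygen were examined after Aurora kinase A was depleted or inhibited in GFP-SAS, a line of human squamous carcinoma whose sample description names the tongue. The set holds 38 named genes, chosen as 17 glycolytic enzymes and 21 other genes of glucose handling, oxygen sensing and hypoxic response. It was read through probe sets that name 1 of these genes and no other, and where several probe sets read a gene their median was used. On that rule 35 of the 38 genes were measured, among 18239 genes in all: 17 glycolytic enzymes and 18 others. SLC2A3, a neuronal-type glucose transporter, was read only by 5 probe sets that also name SLC2A14, and SLC16A3 and CA9 were not analysed here.

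The 5 groups were cells exposed for 24 h to siAURKA-1 at 10 nM, to siAURKA-2 at 10 nM, to MLN8237 at 100 nM (alisertib, an Aurora kinase A inhibitor), to the control siRNA siNT (taken to be non-targeting), or to DMSO vehicle. All came from this single line, kept in air with CO2, and no hypoxic culture is described in the labels. Each group was 1 Affymetrix array of total RNA, so every difference below sets 1 array against another, with no replicate check and no test. Both siRNA comparisons use the same siNT array, and the MLN8237 and siNT comparisons use the same DMSO array.

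Glycolysis splits glucose into pyruvate in the cytosol, and lactate dehydrogenase can turn that pyruvate into lactate so that the pathway continues. When oxygen is short, prolyl hydroxylases no longer mark the alpha subunit of the hypoxia-inducible factor (HIF) for destruction, and HIF then binds DNA at a core ACGTG or GCGTG and switches on many glycolytic genes. Squamous carcinomas often keep a high rate of glycolysis even in air.

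Values are signals, taken as log2, that were centred in each probe set on the median of the 5 arrays. They compare arrays for a gene and carry no expression level, so neither the order of genes by abundance nor the markers of the squamous cell type could be checked. Differences are log2, and a gene is counted as higher or lower where it lay at least 1.5-fold (0.585) apart. The median over all genes was 0.00 in each comparison. As a check of the labels, AURKA itself differed from siNT by -3.36 (siAURKA-1) and -2.64 (siAURKA-2). Of 16 fibroblast, leukocyte and endothelial markers, 0 were 1.5-fold apart in any comparison. Of 5 measured squamous markers, 1 was lower on the siAURKA-2 array than on the siNT array (-1.82). In addition, 1 was higher under siAURKA-1 than under siAURKA-2 (2.13) and 1 was higher for siNT than for DMSO (0.62). The median of the 5 was 0.10 for siAURKA-1 minus siNT, -0.21 for siAURKA-2 minus siNT and -0.25 for MLN8237 minus DMSO. With MLN8237 all 5 lay below DMSO, from -0.45 to -0.06. The part of these markers in the differences below was not tested. In bulk RNA, fewer cells with a transcript and less of it per cell cannot be told apart.

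**Figure D1:**
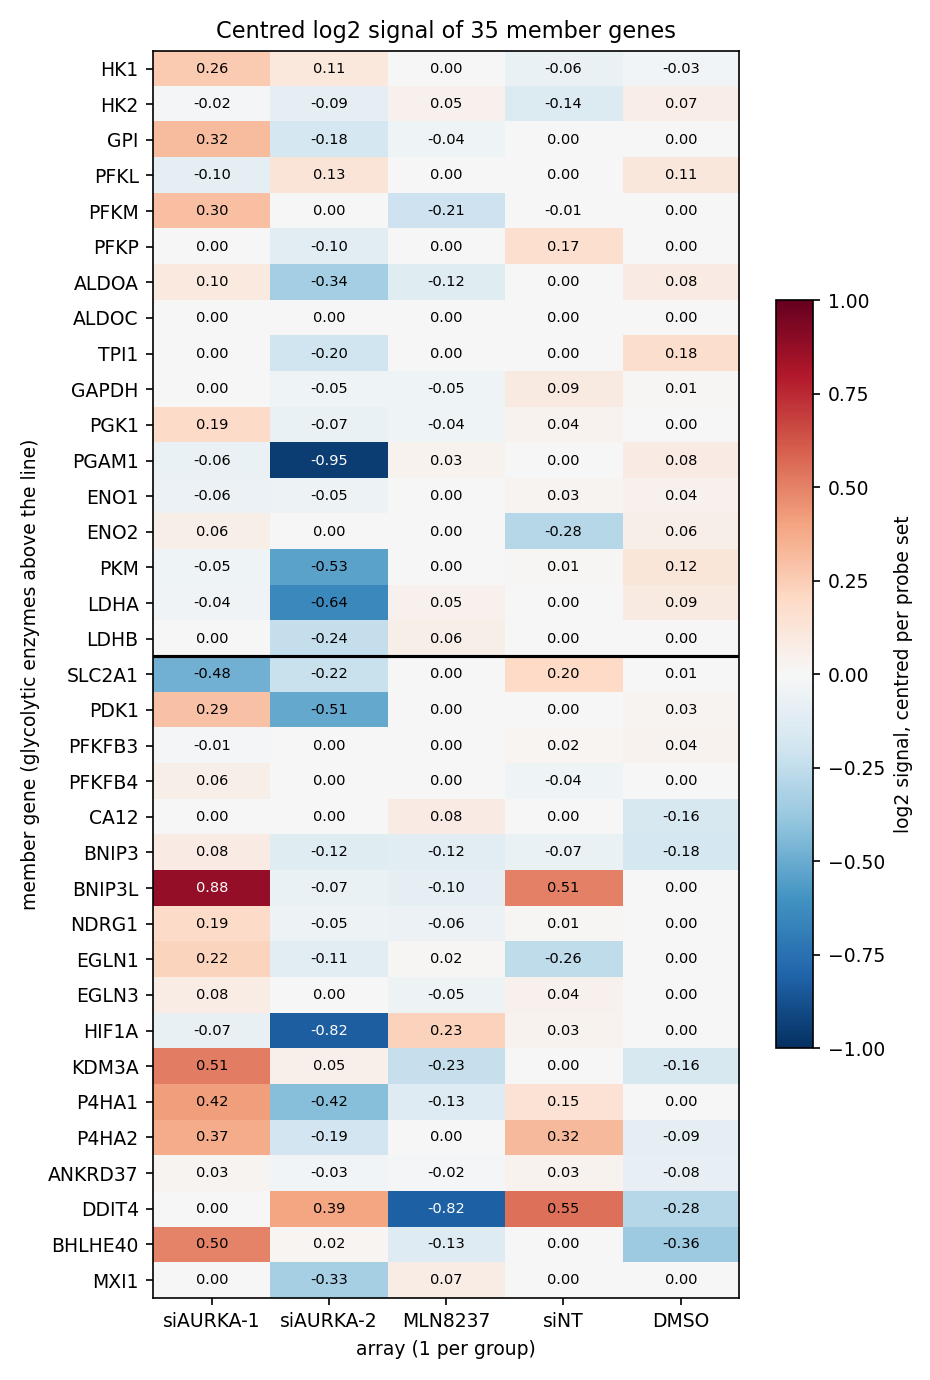
Centred log2 signal (colour and printed number) of the 35 measured genes, in rows, on the 5 arrays, in columns, with glycolytic enzymes above the line. The siAURKA-2 column holds the low values of PGAM1 (-0.95), HIF1A (-0.82) and LDHA (-0.64), and the siAURKA-1 column the high value of BNIP3L (0.88).

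Under siAURKA-2, 2 enzymes from the later steps of glycolysis were lower than under siNT. PGAM1, the phosphoglycerate mutase, was 1.93-fold lower under siAURKA-2 than under siNT, and LDHA, the muscle-type lactate dehydrogenase subunit, was 1.56-fold lower. With siAURKA-1 both genes stayed close to siNT. Of the 17 enzymes, 2 were at least 1.5-fold lower under siAURKA-2 and 0 higher, while over all genes 3.11% were that much lower and 1.96% higher (5.08% in either direction).

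The 6 promoter windows below (RefSeq, GRCh38.p14, from 250 bases before to 50 after the start of transcription) show where the HIF core motif ACGTG lies in genes that the results turn on. They are the windows of 5 of the 6 genes that were at least 1.5-fold lower under siAURKA-2 than under siAURKA-1. No window was found for the remaining gene, BNIP3L. PGK1, an enzyme gene within 1.5-fold, is shown beside them. LDHA is at chr11:18394313-18394612 on the plus strand, HIF1A at chr14:61695263-61695562 on the plus strand, PDK1 at chr2:172555840-172556139 on the plus strand, P4HA1 at chr10:73096817-73097116 on the minus strand, PGAM1 at chr10:97427568-97427867 on the plus strand and PGK1 at chrX:78103998-78104297 on the plus strand. For LDHA and PDK1, which have 2 windows each, the one with more matches is shown, and both windows of HIF1A had 0 matches. Capitals mark ACGTG on either strand, read 5′ to 3′ along the gene. The other core named above, GCGTG, was not marked or counted.
PGAM1: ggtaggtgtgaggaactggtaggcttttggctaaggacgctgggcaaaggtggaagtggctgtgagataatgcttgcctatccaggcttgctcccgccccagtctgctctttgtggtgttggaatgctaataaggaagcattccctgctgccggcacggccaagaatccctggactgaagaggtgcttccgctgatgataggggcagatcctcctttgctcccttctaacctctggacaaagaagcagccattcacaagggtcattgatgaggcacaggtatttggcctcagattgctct
LDHA: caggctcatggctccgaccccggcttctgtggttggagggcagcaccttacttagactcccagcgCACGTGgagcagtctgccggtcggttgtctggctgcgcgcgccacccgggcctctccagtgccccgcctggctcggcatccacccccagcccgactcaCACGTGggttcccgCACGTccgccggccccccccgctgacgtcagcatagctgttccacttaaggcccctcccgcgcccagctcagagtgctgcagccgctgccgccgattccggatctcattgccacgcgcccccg
HIF1A: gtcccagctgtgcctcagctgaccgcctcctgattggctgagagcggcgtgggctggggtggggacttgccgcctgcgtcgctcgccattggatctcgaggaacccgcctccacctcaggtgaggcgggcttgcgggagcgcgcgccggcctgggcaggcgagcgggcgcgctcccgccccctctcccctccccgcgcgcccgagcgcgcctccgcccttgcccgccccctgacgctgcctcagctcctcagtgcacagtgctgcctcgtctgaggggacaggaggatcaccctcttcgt
PDK1: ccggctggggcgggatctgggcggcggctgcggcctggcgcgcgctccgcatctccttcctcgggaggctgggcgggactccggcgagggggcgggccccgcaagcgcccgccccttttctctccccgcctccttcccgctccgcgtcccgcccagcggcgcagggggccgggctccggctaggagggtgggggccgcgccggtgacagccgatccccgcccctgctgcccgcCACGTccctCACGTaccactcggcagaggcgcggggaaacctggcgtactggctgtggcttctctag
P4HA1: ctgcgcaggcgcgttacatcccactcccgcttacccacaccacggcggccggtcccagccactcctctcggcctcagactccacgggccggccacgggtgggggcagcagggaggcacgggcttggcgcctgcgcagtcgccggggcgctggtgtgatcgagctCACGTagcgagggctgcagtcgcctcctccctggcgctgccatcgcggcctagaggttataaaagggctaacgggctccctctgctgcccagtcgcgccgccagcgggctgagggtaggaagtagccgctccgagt
PGK1: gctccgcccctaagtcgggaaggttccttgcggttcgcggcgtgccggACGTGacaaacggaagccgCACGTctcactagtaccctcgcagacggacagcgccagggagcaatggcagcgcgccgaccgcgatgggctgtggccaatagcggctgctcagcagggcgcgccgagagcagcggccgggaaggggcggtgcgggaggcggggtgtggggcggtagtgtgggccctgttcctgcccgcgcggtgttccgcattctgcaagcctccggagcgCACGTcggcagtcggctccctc

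LDHA had 5 matches, in which each palindromic CACGTG counts once per strand. PDK1 had 2 matches, beginning 17 and 8 bases before the start, and P4HA1 had 1, beginning 86 bases before it. PGAM1, the enzyme furthest below siNT under siAURKA-2, had 0 ACGTG matches in this window, as had HIF1A. PGK1, at -0.11 in that comparison, had 3. The LDHA, HIF1A and PGK1 windows also hold GCGTG on either strand, which was not counted in the matches or in the shares below. Windows were found for 33 of the 35 measured genes, and 20 of these (60.6%) held ACGTG on either strand in at least 1 window, against 24.9% of all 27305 genes with a window and 21.4% of all 35116 windows. Several of the genes are in the set because they are known HIF targets. The 20 genes with a match had a median of -0.12 for siAURKA-2 minus siNT and the 13 without one had -0.08. For siAURKA-1 minus siNT these medians were 0.11 and 0.00.

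PGAM1 read -0.06 under siAURKA-1, -0.95 under siAURKA-2, 0.03 under MLN8237, 0.00 under siNT and 0.08 under DMSO. The siAURKA-2 array stood alone at the low end and the other arrays lay close together. Its difference from siNT was -0.06 under siAURKA-1 and -0.95 under siAURKA-2, and from DMSO it was -1.02 under siAURKA-2. All 4 PGAM1 probe sets were lower under siAURKA-2 than under siNT, by -0.998 to -0.579.

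LDHA had a like profile, at -0.04 under siAURKA-1, -0.64 under siAURKA-2, 0.05 under MLN8237, 0.00 under siNT and 0.09 under DMSO. Against siNT it differed by -0.04 under siAURKA-1 and by -0.64 under siAURKA-2. Its 4 probe sets gave -0.79 to -0.61 under siAURKA-2, again with that array alone at the low end. LDHB, the heart-type subunit of the same enzyme, was read by 1 probe set and gave 0.00 under siAURKA-1 and -0.24 under siAURKA-2, short of 1.5-fold. All probe sets of PGAM1 and LDHA are of the kinds marked by the array maker as possibly matching several transcripts, so signal from related sequences cannot be told apart in them.

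PKM, the pyruvate kinase expressed in most tumours, gave -0.06 under siAURKA-1 and -0.55 under siAURKA-2, the second just short of the threshold. Against DMSO it was past the threshold under siAURKA-2 (-0.65). Its 5 probe sets did not give 1 size: under siAURKA-2 they spread from -0.85 to -0.01. The aldolase gene ALDOA gave 0.10 under siAURKA-1 and -0.34 under siAURKA-2, and the platelet phosphofructokinase PFKP gave -0.17 and -0.27. Neither is a 1.5-fold difference.

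The remaining enzymes were all within 1.5-fold of siNT with both siRNAs. GAPDH, the dehydrogenase often used as a loading control, read 0.00 under siAURKA-1, -0.05 under siAURKA-2, -0.05 under MLN8237, 0.09 under siNT and 0.01 under DMSO. The 3 control probe sets that the array carries for GAPDH gave -0.02 to 0.02 for siAURKA-1 minus siNT and -0.11 to -0.09 for siAURKA-2 minus siNT. Their contrast between the 3' and 5' ends of the transcript, a sign of RNA integrity, was within 0.05 of DMSO on every array (-0.05 to 0.03). The same contrast for ACTB, the beta-actin gene, was 0.11 above DMSO under siAURKA-1, 0.13 under siAURKA-2, 0.11 under MLN8237 and 0.25 under siNT. What part this plays in the differences of the enzymes was not tested.

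PGK1, the phosphoglycerate kinase, gave 0.15 under siAURKA-1 and -0.11 under siAURKA-2, and TPI1, the triose phosphate isomerase, gave 0.01 and -0.19. ENO1, the ubiquitous enolase that acts just after PGAM1 in the pathway, gave -0.09 and -0.08. ENO2, the neuronal enolase, lay above siNT with both siRNAs (0.35 under siAURKA-1 and 0.28 under siAURKA-2), with siNT the lowest array for it. At the entry of the pathway the hexokinase gene HK1 gave 0.32 under siAURKA-1 and 0.17 under siAURKA-2, and HK2, the inducible hexokinase, gave 0.12 and 0.05. GPI, the glucose phosphate isomerase, gave 0.32 and -0.18. The liver-type and muscle-type phosphofructokinases PFKL and PFKM gave -0.10 and 0.30 under siAURKA-1, and 0.13 and 0.01 under siAURKA-2. ALDOC, the brain aldolase, read 0.00 on all 5 arrays.

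As a list, the 17 enzymes had a median of -0.13 under siAURKA-2, with 11 below siNT and 5 above it (all genes: 7722 below, 8374 above). Without the probe sets that may match several transcripts, 10 enzymes remained measured, PGAM1 and LDHA not among them, and this median was -0.018. With siAURKA-1 the median was 0.00, with 7 below and 8 above (all genes: 7690 below, 8609 above), and 0 were 1.5-fold apart. The siAURKA-2 array held the lowest value, alone among the 5 arrays, for 10 of the 17 enzymes and for 15 of the 35 genes, where 17.7% of all genes had it alone at the low end. It was alone at the high end for 1 of the 35 genes, against 23.6% of all genes. The siAURKA-1 array was alone at the high end for 17 of the 35 (27.8% of all genes) and the MLN8237 array for 4 (8.55% of all genes).

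Among the other genes, the oxygen-sensing group contained the member furthest below siNT under siAURKA-2. HIF1A, the alpha subunit of HIF that oxygen destabilises, read -0.07 under siAURKA-1, -0.82 under siAURKA-2, 0.23 under MLN8237, 0.03 under siNT and 0.00 under DMSO. The siAURKA-2 array was the lowest and the MLN8237 array the highest. HIF1A was thus 1.81-fold lower under siAURKA-2 than under siNT (-0.86) and near siNT under siAURKA-1 (-0.10). All 8 of its probe sets were lower under siAURKA-2, by -1.10 to -0.60.

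The prolyl hydroxylases that inactivate HIF in air did not share that profile. EGLN1, the main one of them, gave 0.48 under siAURKA-1 and 0.14 under siAURKA-2, with siNT the lowest array (-0.26). Its 3 probe sets gave 0.71, 0.63 and 0.24 for siAURKA-1 minus siNT. The first and second of these were past 1.5-fold, although the gene value was not. EGLN3, itself a HIF target, gave 0.03 and -0.04.

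SLC2A1, the basal glucose transporter, was the 1 gene of the 35 at least 1.5-fold lower under siAURKA-1 than under siNT, and 0 were higher. Over all genes 4.48% were that much lower and 2.57% higher (7.05% in either direction). SLC2A1 read -0.48 under siAURKA-1, -0.22 under siAURKA-2, 0.00 under MLN8237, 0.20 under siNT and 0.01 under DMSO. Both siRNA arrays lay below the other arrays, siAURKA-1 further than siAURKA-2. The difference from siNT was -0.68 under siAURKA-1 (1.61-fold lower) and -0.42 under siAURKA-2. Because siNT was the highest array, the differences from DMSO were smaller, at -0.49 and -0.23, both short of 1.5-fold. All 4 probe sets had the same direction in each siRNA comparison, from -0.96 to -0.21 under siAURKA-1 and from -0.58 to -0.16 under siAURKA-2.

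**Figure D2:**
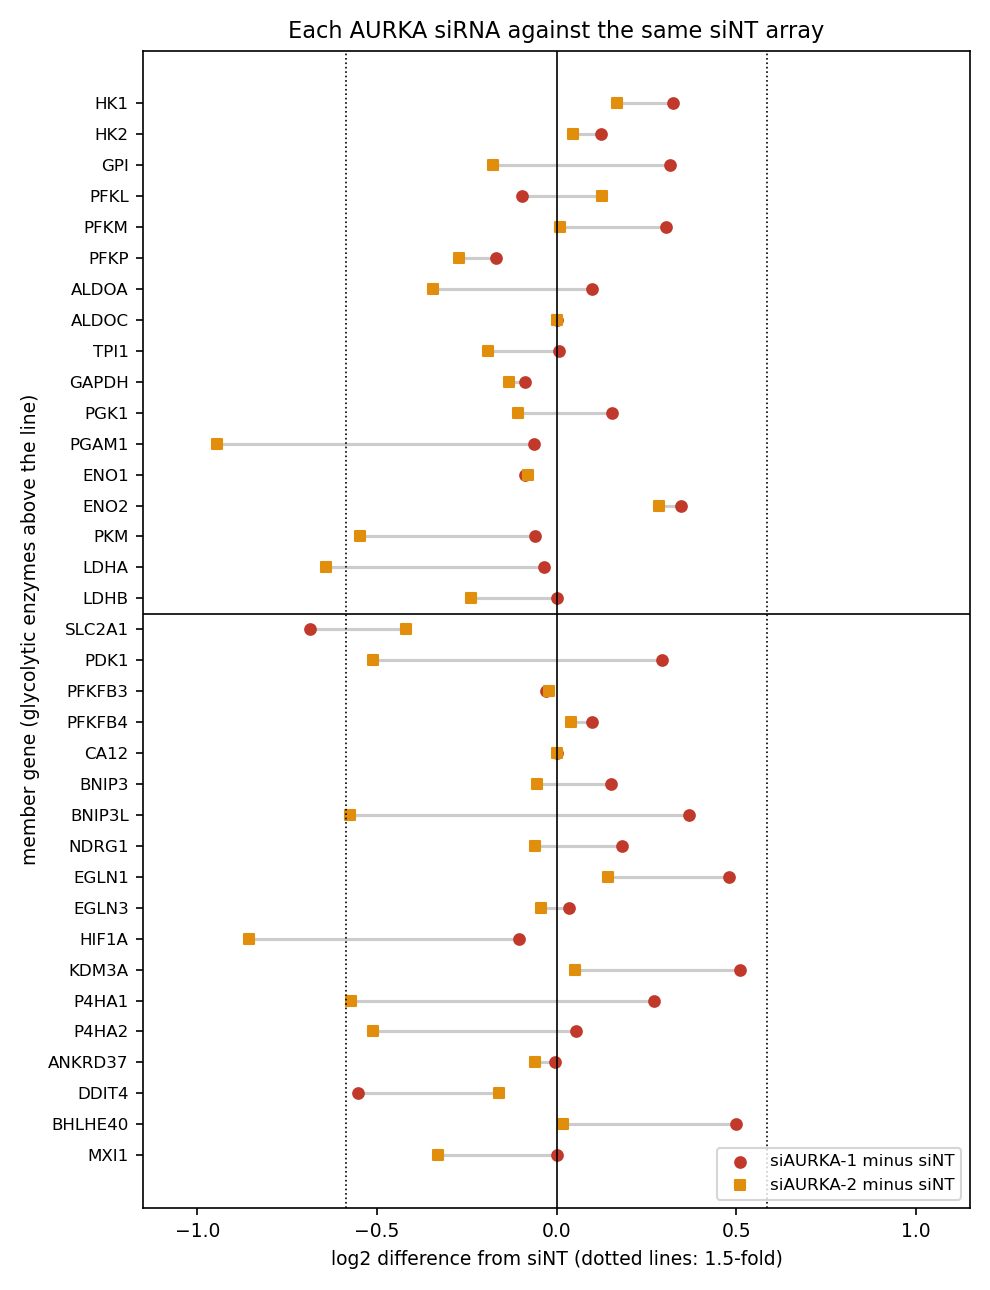
Log2 difference of each gene from siNT under siAURKA-1 (circles) and siAURKA-2 (squares), joined by a grey bar, with dotted lines at 1.5-fold. Past the left line are SLC2A1 under siAURKA-1 and PGAM1, LDHA and HIF1A under siAURKA-2, and no gene is past the right line. Both comparisons share the siNT array.

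Several further hypoxia-responsive genes lay on different sides of siNT with the 2 siRNAs. PDK1, the kinase that shuts pyruvate dehydrogenase and so keeps pyruvate out of mitochondria, read 0.29 under siAURKA-1, -0.51 under siAURKA-2, 0.00 under MLN8237, 0.00 under siNT and 0.03 under DMSO. The siRNA arrays were the extremes, 1.75-fold apart (0.80), and neither was 1.5-fold from siNT (0.29 and -0.51). Its 2 probe sets differed in size, at -0.83 and -0.19 for siAURKA-2 minus siNT and 0.50 and 0.09 for siAURKA-1 minus siNT. Between the siRNA arrays they gave 1.33 and 0.28, only the first of them past 1.5-fold.

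P4HA1, the catalytic subunit of the prolyl hydroxylase that prepares collagen for folding, read 0.42 under siAURKA-1, -0.42 under siAURKA-2, -0.13 under MLN8237, 0.15 under siNT and 0.00 under DMSO. It differed from siNT by 0.27 under siAURKA-1 and by -0.57 under siAURKA-2, and rests on 1 probe set. Here too the 2 siRNA arrays were the extremes. The related P4HA2 gave 0.05 and -0.51.

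BNIP3L, a receptor that marks mitochondria for autophagy, read 0.88 under siAURKA-1, -0.07 under siAURKA-2, -0.10 under MLN8237, 0.51 under siNT and 0.00 under DMSO. The siAURKA-1 and siNT arrays were high and the other arrays were level. Against siNT the differences were 0.37 under siAURKA-1 and -0.57 under siAURKA-2, whereas against DMSO they were 0.88 and -0.07. All 6 probe sets shared the direction of the median in both siRNA comparisons. They gave 0.21 to 0.41 for siAURKA-1 minus siNT and -0.66 to -0.24 for siAURKA-2 minus siNT. In the second comparison some single probe sets were past 1.5-fold, although the gene value (-0.57) was not. BNIP3, the paralogue of BNIP3L, gave 0.15 and -0.05.

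In all, 6 of the 35 genes exceeded 1.5-fold in favour of siAURKA-1 over siAURKA-2 and 0 were lower, where 3.68% of all genes were higher and 3.99% lower (7.66% in either direction). Ordered by size, they were BNIP3L (0.94), PGAM1 (0.88), P4HA1 (0.84), PDK1 (0.80), HIF1A (0.75) and LDHA (0.61), and P4HA2 lay just below the threshold (0.56). The median of this comparison was 0.20 over the enzymes and 0.29 over the other 18 genes. In the siNT comparisons the medians of those 18 genes were 0.08 under siAURKA-1 and -0.06 under siAURKA-2. The enzyme median thus differed from that of the other genes by -0.08 in the first case and -0.07 in the second, small next to the range within either list.

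**Figure D3:**
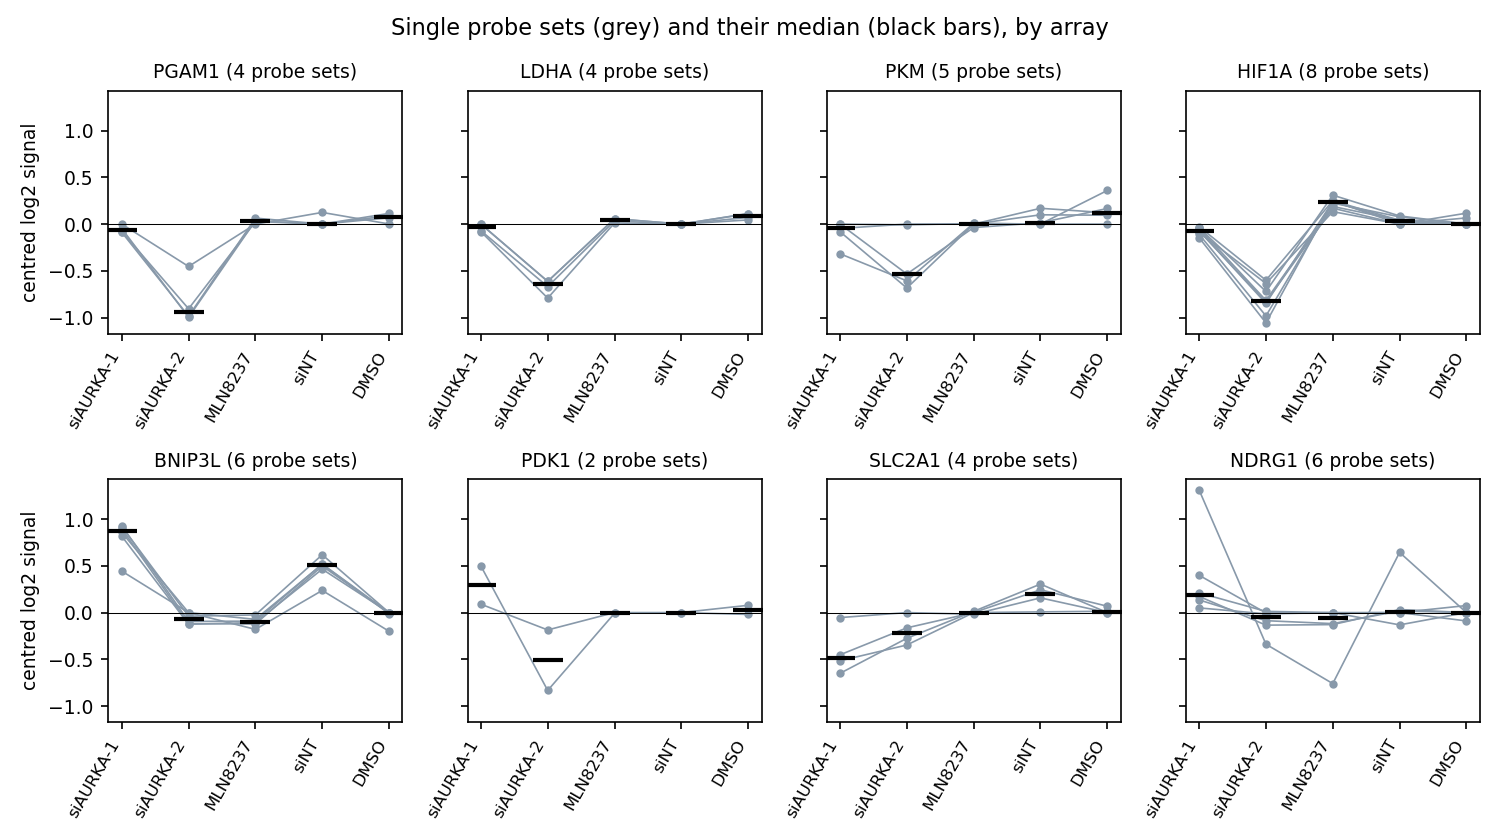
Centred log2 signal (vertical axis) of the single probe sets (grey points, joined across arrays for each probe set) and their median (black bars) for 8 genes on the 5 arrays (horizontal axis). The probe sets of PGAM1, LDHA and HIF1A drop together on the siAURKA-2 array, those of PKM and PDK1 differ in size, and 1 of the 6 NDRG1 probe sets departs from the rest.

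The other stress and regulatory genes were within 1.5-fold of siNT with both siRNAs. KDM3A, a histone demethylase induced by hypoxia, gave 0.51 under siAURKA-1 and 0.05 under siAURKA-2, and the transcriptional repressor gene BHLHE40 gave 0.50 and 0.02. Against DMSO both were 1.5-fold higher under siAURKA-1, at 0.67 and 0.86. MXI1, an antagonist of MYC, gave 0.00 under siAURKA-1 and -0.33 under siAURKA-2. NDRG1, a stress-induced gene, gave 0.18 and -0.06, and ANKRD37, a HIF target, gave 0.00 and -0.06. PFKFB3 and PFKFB4, the bifunctional enzymes that set the level of a phosphofructokinase activator, gave -0.03 and 0.10 under siAURKA-1 and -0.02 and 0.04 under siAURKA-2. The carbonic anhydrase gene CA12 read 0.00 on both siRNA arrays and the siNT array as the median of 5 probe sets. Singly these ran from -0.33 to 0.03 for siAURKA-1 minus siNT and from -0.29 to 0.03 for siAURKA-2 minus siNT.

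Inhibition of the kinase was set against vehicle. With MLN8237, 0 of the 35 genes were 1.5-fold apart from DMSO, where 0.482% of all genes were. The 17 enzymes lay between -0.21 and 0.06, with 13 below DMSO and 2 above, and a median of -0.05. Over all 18239 genes, 8409 were below DMSO and 7061 above. With siNT, which is compared with the same DMSO array, 12 of the enzymes were also below DMSO and 3 above (all genes: 7229 below, 8674 above). The DMSO array was alone at the high end for 6 of the 17 enzymes, and for 15.2% of all genes. PFKM and ALDOA were lowest relative to DMSO (-0.21 and -0.20). HIF1A gave 0.23 and all 8 of its probe sets lay above DMSO, and CA12 (0.24) and BHLHE40 (0.23) gave differences of the same size. LDHA, PGAM1 and SLC2A1, each 1.5-fold below siNT with one of the siRNAs, gave -0.05, -0.05 and -0.01 under MLN8237, and PDK1 gave -0.03.

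DDIT4, a stress-induced inhibitor of mTORC1, spanned the widest range over the arrays of any member. The gene read 0.00 under siAURKA-1, 0.39 under siAURKA-2, -0.82 under MLN8237, 0.55 under siNT and -0.28 under DMSO. The 3 siRNA-treated arrays all lay above the MLN8237 and DMSO arrays. MLN8237 minus DMSO was -0.53, short of 1.5-fold, and siNT minus DMSO was 0.84 (1.79-fold higher). DDIT4 was the 1 member past 1.5-fold between the controls, where 2.08% of all genes were (1.53% higher), and it rests on 1 probe set. Relative to siNT it gave -0.55 under siAURKA-1 and -0.16 under siAURKA-2, and relative to DMSO it gave 0.28 and 0.68, so the direction turned with the control. Between the controls the enzymes had a median of -0.04 and the other genes of 0.11, with BNIP3L (0.51), P4HA2 (0.41) and BHLHE40 (0.36) next after DDIT4.

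**Figure D4:**
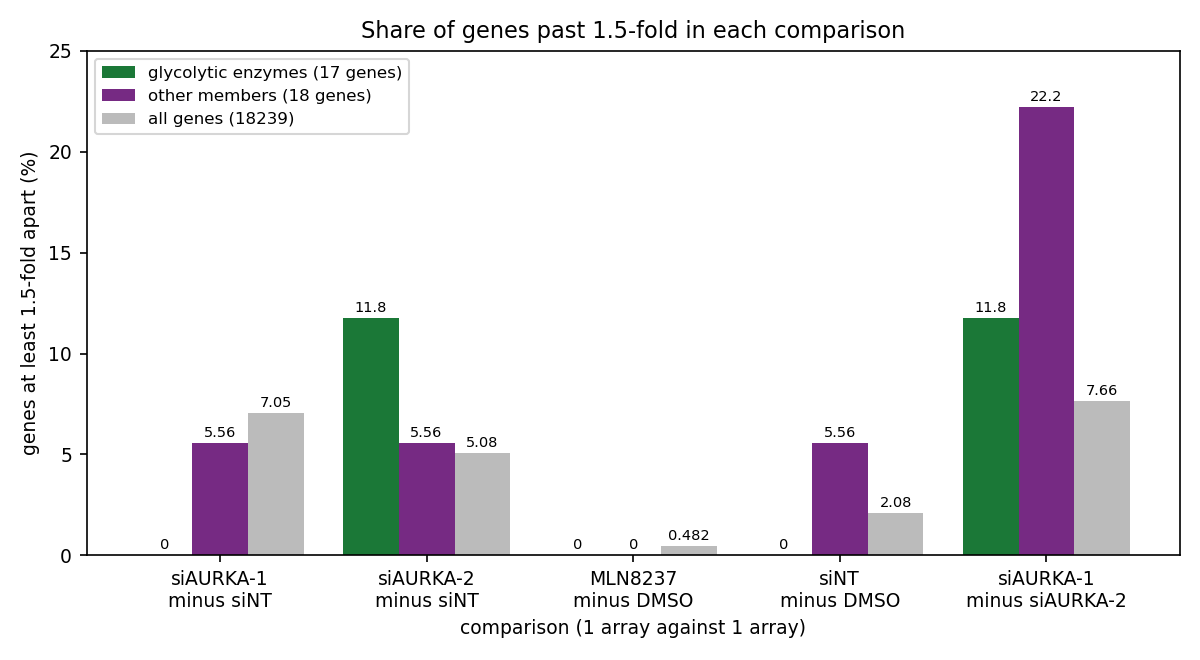
Percent of genes at least 1.5-fold apart (bars from 0) in each of the 5 comparisons, for the 17 enzymes, the other 18 measured genes and all 18239 genes. The siAURKA-1 against siAURKA-2 comparison has 11.8% of enzymes and 22.2% of the other genes past 1.5-fold, beside 7.66% of all genes, and MLN8237 against DMSO has 0 of either list.

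Neighbouring parts of the pathway were read from lists of genes outside the set. Of 19 measured further hypoxia-responsive genes, 4 were at least 1.5-fold lower under siAURKA-1 than under siNT and 0 higher, beside the 4.48% of all genes given above. The 3 furthest were ZNF395 (-1.38), ANGPTL4, a secreted regulator of lipid uptake (-1.24), and STC2, a secreted glycoprotein (-1.23). With siAURKA-2 the count was 2, ANGPTL4 (-1.20) and the mitochondrial adenylate kinase AK4 (-1.06), beside 3.11% of all genes. ANGPTL4 lay 1.23 above DMSO on the siNT array, so that both siRNA arrays were level with DMSO for it. Between the siRNAs, 1 of the 19 was at least 1.5-fold higher for siAURKA-1, AK4 (0.59). In the same comparison 3 were lower, INSIG2 (-1.48), STC2 (-0.97) and ZNF395 (-0.90), and the median was 0.00. Over all genes 3.68% were that much higher and 3.99% lower. Between the controls 2 were higher for siNT, ANGPTL4 and STC2 (0.73), and 0 lower (all genes: 1.53% higher, 0.554% lower). The list medians were -0.09 under siAURKA-1, -0.04 under siAURKA-2 and 0.00 under MLN8237. Of 8 HIF subunits and regulators, 0 were 1.5-fold apart in any comparison. HIF1AN, the asparagine hydroxylase that inhibits HIF, came closest under siAURKA-1 (0.57), and VHL, which targets HIF for destruction, under siAURKA-2 (0.53).

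Among 6 measured pentose phosphate genes, 2 were at least 1.5-fold lower under siAURKA-1 and 0 under siAURKA-2 (all genes: 4.48% and 3.11%). RPIA, the ribose phosphate isomerase, gave -1.23 under siAURKA-1 and 0.50 under siAURKA-2, and RPE, the epimerase of the same branch, gave -0.94 and -0.40. Between the siRNAs 0 of the 6 were 1.5-fold higher for siAURKA-1 and 2 were lower, RPIA (-1.73) and the lactonase gene PGLS (-0.62). Over all genes 3.68% were that much higher and 3.99% lower. The 16 measured other isoforms and side arms of glycolysis had 0 genes past 1.5-fold in either siRNA comparison with siNT. Between the siRNAs, TIGAR, a brake on glycolytic flux, was higher under siAURKA-1 (0.95) and the kinase gene PDK3 lower (-0.78). The 9 genes of pyruvate entry into mitochondria had medians of -0.02 under siAURKA-1 and -0.03 under siAURKA-2, and 0 were 1.5-fold apart from siNT. One of them, the pyruvate carrier subunit MPC2, was lower under siAURKA-1 than under siAURKA-2 (-0.84).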

How the data were processed

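The authors deposited log2 signals after robust multi-array average (RMA) processing, which is named per the submitters' processing notes. For software, version, log base and centring the sources used here give nothing. Values are taken as log2, and all 49386 probe sets had a median of exactly 0 over the 5 arrays. Depth does not apply to arrays, and their number limits the precision: with 1 array per group no error can be given.

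From the deposited values, the 93 control probe sets were set apart and 45253 probe sets that name 1 gene were kept. Symbols were updated by Entrez number to a RefSeq table, and genes were summarised by the median over probe sets (Python 3.11.15, pandas 2.3.3). The 35 measured members had 110 probe sets, and 10 members had 1. Each AURKA siRNA was set against siNT and against the other, and MLN8237 and siNT against DMSO. Calls used 1.5-fold, with 2-fold and 1.25-fold as alternatives. The calling step was run on simulated data with planted 2-fold differences and low noise, which checks the code and not the calls. All members are named. All 5 arrays are given for members past 1.5-fold and for HIF1A, SLC2A1, LDHA, PDK1 and GAPDH, and of other lists up to 3 genes per comparison past 1.5-fold, with HIF1AN and VHL chosen after their values were seen. Members and lists were chosen with earlier results of these data known. The dose of siNT was not used because the labels leave it unclear. Alternatives were the array centring, the other control array, other summaries over probe sets and other choices of probe sets.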

Additional observations from a re-analysis of the deposited data

Results flagged for a closer look

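The 2 AURKA siRNAs placed 3 genes on opposite sides of siNT while lying at least 1.5-fold apart from each other. The siAURKA-1 minus siAURKA-2 differences were 0.94 for BNIP3L, 0.84 for P4HA1 and 0.80 for PDK1, all higher with siAURKA-1. These differences were not tested, since each siRNA has 1 array. Their directions relative to siNT share the siNT array, and for BNIP3L the siAURKA-2 array was level with DMSO (-0.07). The PDK1 difference rests on 2 probe sets at 1.33 and 0.28, only the first of them past 1.5-fold. AURKA itself differed by -0.72 between the siRNA arrays (siAURKA-1 minus siAURKA-2), and its part in these differences was not tested.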

How the results depend on the processing

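Centring each array on its median over all genes, taking the mean of the probe sets and including the GAPDH control probe sets (added after seeing the data) left all 11 calls of members past 1.5-fold in place. At 2-fold there were 0 calls in any comparison. Shares of all genes were computed only in the main setting at 1.5-fold, so the counts that follow have none beside them. At the looser fold threshold, siAURKA-1 minus siNT had 6 higher and 2 lower, siAURKA-2 minus siNT 11 lower, MLN8237 minus DMSO 1 lower, siNT minus DMSO 4 higher and 1 lower, and siAURKA-1 minus siAURKA-2 14 higher and 1 lower. Against the other control array, siAURKA-1 had 3 higher and 0 lower (SLC2A1 no longer passed) with a median of 0.21 over the non-enzyme genes, siAURKA-2 had 1 higher (DDIT4) and 4 lower (PKM newly among them), and MLN8237 minus siNT had 2 lower. With the most variable probe set of each gene, siAURKA-1 minus siNT had 2 higher, siAURKA-2 minus siNT 7 lower, MLN8237 minus DMSO 1 lower and siNT minus DMSO 2 higher. The medians of the non-enzyme genes were then -0.26 for siAURKA-2 minus siNT, 0.26 for siNT minus DMSO and 0.39 for siAURKA-1 minus siAURKA-2. Without probe sets of the kinds that may match several transcripts, 26 genes remained measured, PGAM1, LDHA and P4HA1 among the 9 lost. The enzyme medians were then 0.12 for siAURKA-1 and -0.018 for siAURKA-2 (each minus siNT), and siAURKA-1 minus siAURKA-2 had 3 higher with a non-enzyme median of 0.10. The cause of these shifts was not tested. Probe sets naming several genes added 1 call. None of the 11 calls changed direction under these alternatives, but the siRNA differences of DDIT4, short of 1.5-fold against siNT (-0.55 and -0.16), turned to 0.28 and 0.68 against DMSO. No paired analysis was possible because each group has 1 array.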

Other observations

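NDRG1 was read by 6 probe sets, 5 of which gave -0.17 to 0.14 for siAURKA-2 minus siNT while the remaining one gave -0.98. That probe set also gave 0.67 for siAURKA-1 minus siNT, -0.76 for MLN8237 minus DMSO and 0.64 for siNT minus DMSO, so its values do not appear in the median reported for the gene.

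The 5 probe sets shared by SLC2A3 and SLC2A14 had medians of 0.07 for siAURKA-1 minus siNT and 0.10 for siAURKA-2 minus siNT, and 1 of them reached 0.76 with siAURKA-1. A probe set that names PKM beside PKM2, an older entry, gave -0.94 for siAURKA-2 minus siNT and -0.62 for MLN8237 minus DMSO, further from 0 than the PKM median in both.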
